A study of Mus musculus with 4 samples.

Results

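The members were the 7 plasminogen and coagulation genes Serpinb2, Plau, Plaur, F13a1, F10, F3 and Thbs1, taken by gene symbol from the 27998 genes of the count tables and described in every cell class of 4 libraries. The members were selected on the measured Serpinb2 level of neutrophils against macrophages in Vehicle-OVA, so that contrast, and each count below that rests on the Serpinb2 level of these cells in Vehicle-OVA, is given as a description. Each library was made from the nasal mucosa of C57BL/6 mice aged 8 weeks. The mice of 2 groups, Vehicle and Vehicle-OVA, received vehicle, and those of the other 2, Ribavirin and Ribavirin-OVA, the antiviral ribavirin. Vehicle-OVA and Ribavirin-OVA mice also received ovalbumin (OVA), the allergen used to model allergic rhinitis, which the study's methods describe as given by injection and then into the nose. Each group had 1 library, so no difference between groups has a replicate check, no p-value is given, and intervals are 95% intervals of counting error only. In each group the cells were freed with DNase I, hyaluronidase and collagenase I, those carrying CD45 were selected with magnetic beads, and 3′ single-cell RNA-seq was run. The number of mice behind a library was not given in the sources used here.

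Plasmin, made from plasminogen, dissolves fibrin, and cells control where it forms. Urokinase (Plau) cleaves plasminogen, its receptor (Plaur) holds urokinase at the cell surface, and the serpin plasminogen activator inhibitor type 2 (Serpinb2) inhibits urokinase. Tissue factor (F3) starts coagulation by binding factor VII, and the complex activates factor X (F10), which in turn makes thrombin. Factor XIII A (F13a1) cross-links fibrin, and thrombospondin-1 (Thbs1) is a secreted matrix glycoprotein that binds CD36 and CD47. Monocytes and macrophages are known sources of tissue factor, factor XIII A and urokinase in inflamed tissue.

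The 250 bases before the start site are shown for the 3 of 5 members with a promoter entry in RefSeq (GRCm38.p6) that hold an AP-1 motif, and for F10, which holds none. Capitals mark AP-1 (TGANTCA) and, in Serpinb2, a TATA box (TATAAA), and both strands were searched.
Serpinb2, chr1:107511173-107511422, plus strand: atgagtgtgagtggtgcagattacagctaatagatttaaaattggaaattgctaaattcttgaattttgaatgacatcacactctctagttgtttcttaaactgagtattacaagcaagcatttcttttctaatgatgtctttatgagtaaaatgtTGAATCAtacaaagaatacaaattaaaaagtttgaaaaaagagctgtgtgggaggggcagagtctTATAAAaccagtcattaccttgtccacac
Plaur, chr7:24462233-24462482, plus strand: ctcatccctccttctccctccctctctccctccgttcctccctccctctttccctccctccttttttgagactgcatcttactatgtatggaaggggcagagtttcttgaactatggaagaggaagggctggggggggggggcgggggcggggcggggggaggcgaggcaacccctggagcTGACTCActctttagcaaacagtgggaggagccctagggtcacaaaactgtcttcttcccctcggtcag
F3, chr3:121723287-121723536, plus strand: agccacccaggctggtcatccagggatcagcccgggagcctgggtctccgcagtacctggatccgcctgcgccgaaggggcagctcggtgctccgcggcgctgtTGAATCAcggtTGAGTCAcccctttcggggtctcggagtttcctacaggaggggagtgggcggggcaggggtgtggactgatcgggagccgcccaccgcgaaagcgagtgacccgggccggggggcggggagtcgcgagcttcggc
F10, chr8:13037058-13037307, plus strand: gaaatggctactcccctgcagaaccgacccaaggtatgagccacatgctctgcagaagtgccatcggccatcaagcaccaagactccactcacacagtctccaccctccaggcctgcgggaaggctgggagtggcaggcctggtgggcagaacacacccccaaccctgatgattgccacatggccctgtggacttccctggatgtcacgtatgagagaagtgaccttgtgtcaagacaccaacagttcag

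The AP-1 match began 94 bases before the start in Serpinb2, 69 bases before it in Plaur, and 146 and 135 bases before it in F3, and the TATA box of Serpinb2 began 29 bases before the start. Serpinb2 has another listed start, whose window is not printed. The same AP-1 match lay 181 bases and the TATA box 116 bases before that start. AP-1 letters were in 6.75% and TATA letters in 12.4% of 32817 mouse promoter windows of this length. F13a1, the other member with an entry, held neither motif, and Plau and Thbs1 had no entry. A match is a string of letters and not a shown binding site.

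The libraries held 28277 cells for Vehicle, 19143 for Vehicle-OVA, 21401 for Ribavirin and 10311 for Ribavirin-OVA, with 91742940 to 171873110 unique molecular identifiers (UMIs, counts of captured transcripts) per library. After filters, 66030 of 79132 cells remained, in 28 clusters and 13 named classes. Neutrophil-like cells numbered 6586, 10423, 6264 and 2516, macrophage-like cells 3521, 2493, 2478 and 1699, and monocyte-like cells 1644, 340, 1523 and 334, in the order Vehicle, Vehicle-OVA, Ribavirin and Ribavirin-OVA, which holds for every run of 4 values here. Of 8 listed markers per class, 7 or 8 were at least 2-fold higher in that class than in the other cells of the same library. The CD45 transcript was found in 85.9% to 94.9% of neutrophil-like cells, but epithelial-like cells, with 17.7% to 56.0%, and olfactory neuron-like cells were also present in the CD45+ libraries. Between 57 and 174 cell barcodes were shared by any 2 libraries, at most 0.909% of the smaller one. Levels are UMIs summed over the cells of a class, scaled to counts per 1000000 UMIs of that class (CPM).

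The libraries of 1 class did not hold the same clusters, which bears on every comparison within a class. Neutrophil-like cells of Vehicle were in clusters 0 (led by Siglecf, 49.1%) and 2 (Lrg1, 45.1%), and those of Vehicle-OVA were in clusters 1 (Mreg and Cxcl3, 63.4%) and 8 (Mmp8 and Retnlg, 19.9%). Neutrophil-like cells of Ribavirin were in clusters 2 (57.8%) and 0 (35.3%), and those of Ribavirin-OVA in clusters 0 (46.3%), 1 (20.1%) and 2 (17.6%). Macrophage-like cells were mostly of cluster 4 (C1qb and Vcam1) without OVA, with 82.7% in Vehicle and 80.2% in Ribavirin, and mostly of cluster 6 (Ccl24 and Arg1) with OVA, with 91.0% in Vehicle-OVA and 86.4% in Ribavirin-OVA. Monocyte-like cells were mostly of cluster 9 (Ly6i) without OVA and of cluster 14 (Vcan and Ace) with OVA, which held 29.4%, 77.9%, 39.2% and 78.7% of the class. F13a1 itself was among the leading genes of cluster 14, although the members were left out when cells were clustered.

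**Figure D1:**
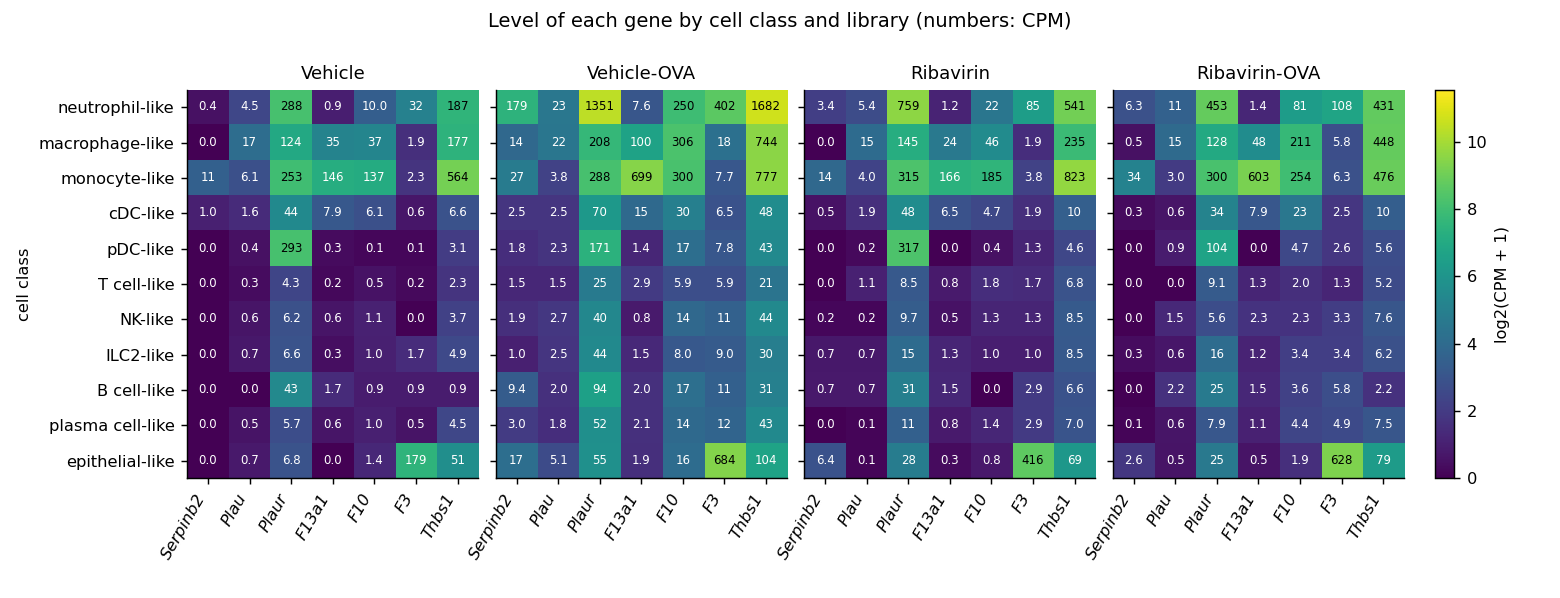
Heat map of the level of each member (columns) in the cell classes (rows) of the 4 libraries (panels), with the colour giving log2(CPM + 1) and the number in each cell the CPM. Serpinb2 in neutrophil-like cells lies at 179 CPM in Vehicle-OVA and at or below 6.29 CPM in the other 3 libraries, while F3 is highest in epithelial-like cells of all 4 libraries.

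Serpinb2 (ENSMUSG00000062345, chr1:107511423-107535478, plus strand), the inhibitor of urokinase, was a transcript of neutrophil-like cells in Vehicle-OVA and of monocyte-like cells in Vehicle. In neutrophil-like cells it was at 0.411, 179, 3.43 and 6.29 CPM, from 7, 5699, 69 and 54 UMIs. In macrophage-like cells it was at 0.0299, 13.9, 0 and 0.454 CPM, from 1, 327, 0 and 8 UMIs, where 0 UMIs allows up to 0.119 CPM. Monocyte-like cells held 10.5, 27.3, 14.1 and 33.6 CPM. Vehicle-OVA thus stood above the other libraries in neutrophil-like and macrophage-like cells, and both OVA libraries stood above both libraries without OVA in monocyte-like cells.

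In Vehicle-OVA the order of Serpinb2 levels was neutrophil-like (179 CPM, 174 to 183), monocyte-like (27.3, 21.8 to 33.7), epithelial-like (17.2, 13.6 to 21.4) and macrophage-like (13.9, 12.5 to 15.5), and the intervals of the first 2 do not overlap those of their neighbours whereas those of the last 2 overlap. The ratio of neutrophil-like to macrophage-like cells was 12.8 (11.5 to 14.4), the contrast that the choice of Serpinb2 used. Neutrophil-like cells held 5699 of the 6259 Serpinb2 UMIs of Vehicle-OVA (91.1%, exact interval 90.3% to 91.7%) and were 64.3% of its cells. In Vehicle, 127 of 147 UMIs (86.4%) were in monocyte-like cells. In Ribavirin, 172 of 352 UMIs (48.9%) were in monocyte-like and 102 (29.0%) in epithelial-like cells.

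Lymphoid cells, which should lack the myeloid transcript, were taken as a guide to free RNA. Summed over T cell-like, B cell-like, plasma cell-like and NK-like cells, Serpinb2 was at 0, 3.59, 0.0612 and 0.0589 CPM. In Vehicle-OVA the 4 classes ran from 1.47 to 9.35 CPM. The highest were B cell-like cells, whose interval (5.11 to 15.7) overlapped that of macrophage-like cells given above. In Vehicle-OVA the lymphoid level was 2.01% of the neutrophil-like level for Serpinb2 and 1.94% for S100a9, an abundant neutrophil transcript. The macrophage-like level was 7.80% of the neutrophil-like level for Serpinb2 against 1.79% for S100a9 and 1.57% for S100a8. The monocyte-like level was 15.3% for Serpinb2 against 3.19% for S100a9 and 4.83% for S100a8. Macrophage-like and monocyte-like cells held more Serpinb2, relative to neutrophil-like cells, than they held S100a8 or S100a9. The part of free RNA in these levels was not tested.

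Serpinb2 was unevenly spread among the neutrophil-like cells of Vehicle-OVA. Of 10423 cells, 9513 (91.3%) had no Serpinb2 UMI, 343 (3.29%) had 1, 567 (5.44%) had at least 2, and the highest cell had 98. After each cell was thinned to 1000 UMIs, 541 of 9843 neutrophil-like cells had a Serpinb2 UMI (5.50%, and 8.73% unthinned), against 24 of 2221 macrophage-like cells (1.08%, 0.694% to 1.60%, and 4.17% unthinned). Plasma cell-like cells, a class that should lack it, gave 0.377% thinned and 4.59% unthinned at a median depth of 14980 UMIs, so the unthinned macrophage-like share, at a median of 8316 UMIs, was not above that of plasma cell-like cells. The thinned shares of neutrophil-like cells in Vehicle, Ribavirin and Ribavirin-OVA were 0.0313%, 0.223% and 0.256%.

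Cluster 1, led by Mreg, Cxcl3 and Olr1, held 89.1% of the Serpinb2 UMIs of neutrophil-like cells in Vehicle-OVA. Its Serpinb2 level was 2.01 CPM in Vehicle (1 UMI), 276 CPM in Vehicle-OVA, 0 in Ribavirin and 21.2 CPM in Ribavirin-OVA. The 0 UMIs among 145 cells in Ribavirin allow up to 7.44 CPM, so the gap to Vehicle was within counting error, but not the gap to Vehicle-OVA. Cluster 8, led by Mmp8 and Retnlg, was at 70.1 CPM (64.3 to 76.3) in Vehicle-OVA, 67.0 CPM (32.1 to 123) in Ribavirin, from 10 UMIs in 38 cells, 17.7 CPM in Ribavirin-OVA and 0 in Vehicle, which allows up to 21.8 CPM. Ribavirin was thus level with Vehicle-OVA in cluster 8, within counting error. Cluster 17, led by the granule genes Camp and Ngp of immature neutrophils, was at 41.0 CPM in Vehicle-OVA. Cluster 0 stayed at 4.75 CPM in Vehicle-OVA, close to the lymphoid level of 3.59 CPM. The difference between Vehicle-OVA and Ribavirin-OVA was thus also found within cluster 1. The leading genes of that cluster were found over its cells of all libraries together, 88.3% of them from Vehicle-OVA.

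In monocyte-like cells Serpinb2 was higher in cluster 14 than in cluster 9 of every library. Cluster 14 held 33.4 (27.3 to 40.5), 34.2 (27.2 to 42.6), 32.8 (27.6 to 38.7) and 39.0 (31.7 to 47.5) CPM, with intervals that overlap in all 4 libraries, and the ratio of Vehicle-OVA to Vehicle within it was 1.02 (0.756 to 1.38). Cluster 9 held 2.68 (1.71 to 3.98), 5.31 (1.45 to 13.6), 3.94 (2.68 to 5.59) and 16.3 (8.66 to 27.8) CPM, so that Ribavirin-OVA stood above Ribavirin there, from 13 and 31 UMIs. Over the whole class the ratio was 2.59 (1.94 to 3.43) under vehicle and 2.38 (1.86 to 3.03) for the ribavirin pair. A Serpinb10 entry overlaps Serpinb2 on the same strand in the GRCm38 annotation used here for positions. The identifier of that entry was not among the genes counted, so the overlap was not shown for the annotation used in counting. Whether reads of the pair were shared or lost was not tested. Serpinb10 was at 9.21, 24.1, 11.3 and 29.7 CPM in monocyte-like cells and at most 0.695 CPM in neutrophil-like cells.

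**Figure D2:**
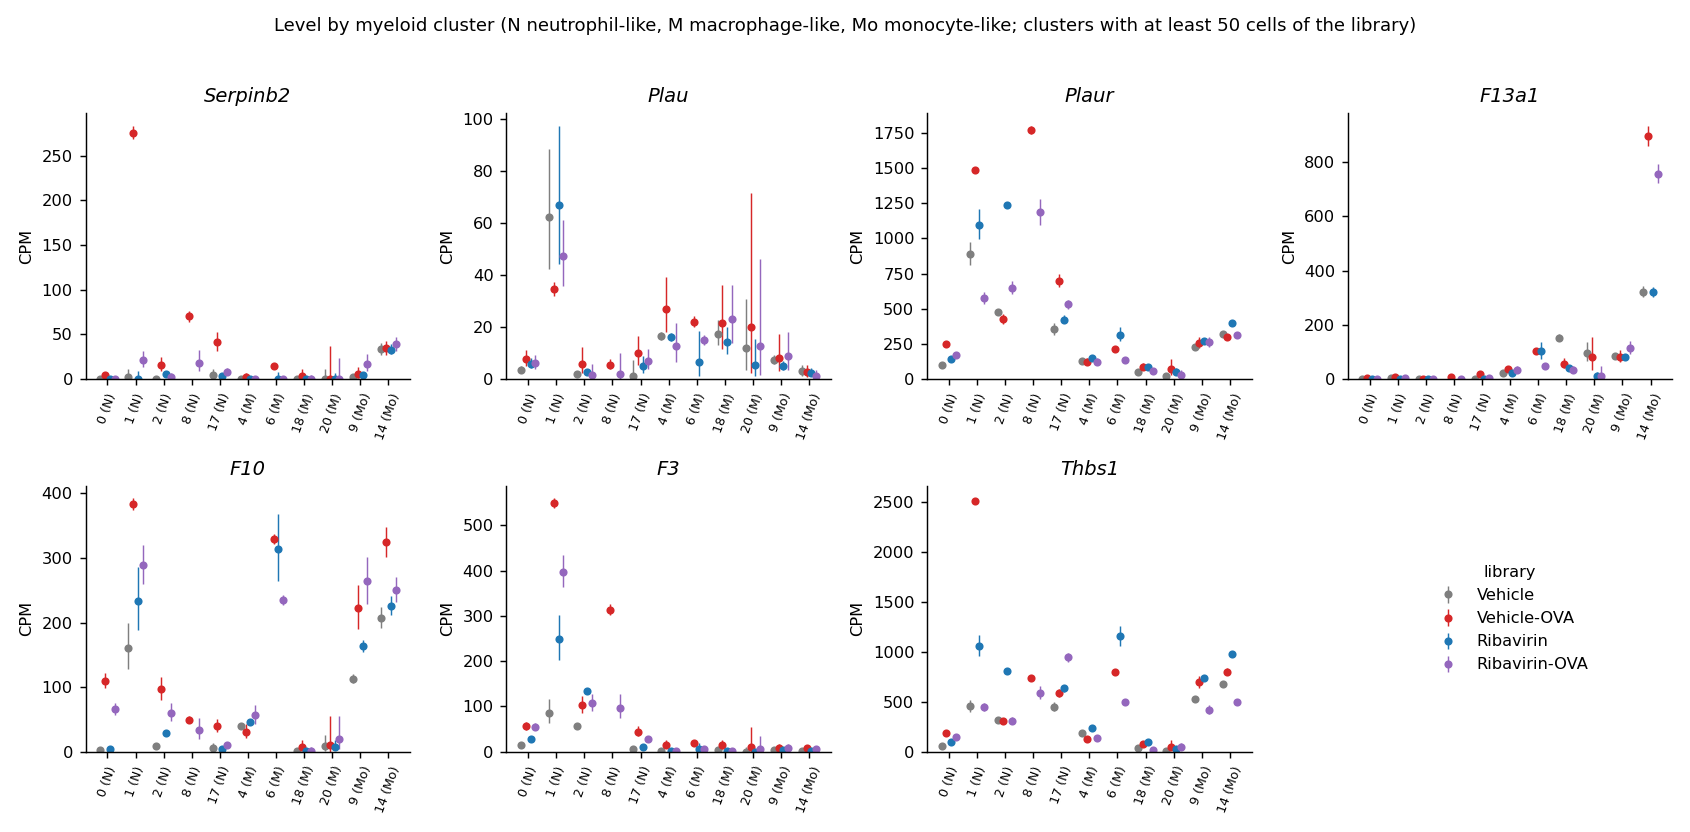
Level of each member (CPM, linear axis, own scale per panel) in the neutrophil-like (N), macrophage-like (M) and monocyte-like (Mo) clusters, with 1 point per library that has at least 50 cells in the cluster and bars for the 95% Poisson interval. Serpinb2 reaches 276 CPM in cluster 1 of Vehicle-OVA against 21.2 CPM in that of Ribavirin-OVA, and lies between 32.8 and 39.0 CPM in cluster 14 of all 4 libraries.

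Plaur (ENSMUSG00000046223, chr7:24462484-24475968, plus strand), the urokinase receptor, was at 288, 1351, 759 and 453 CPM in neutrophil-like cells, highest in Vehicle-OVA and lowest in Vehicle. Macrophage-like cells held 124, 208, 145 and 128 CPM, and monocyte-like cells 253, 288, 315 and 299.7 CPM, a narrow range. Plasmacytoid dendritic cell-like cells also held Plaur, at 293, 171, 317 and 104 CPM, above the lymphoid level of 6.06, 53.6, 10.1 and 8.90 CPM. Within cluster 2, led by Lrg1, Plaur was at 477 CPM in Vehicle, 427 in Vehicle-OVA, 1237 in Ribavirin and 649 in Ribavirin-OVA, so Ribavirin and not Vehicle-OVA was highest there. Cluster 8 held 1413, 1773, 1989 and 1185 CPM, but only 44 cells in Vehicle and 38 in Ribavirin. Plaur thus differed between clusters as well as between libraries.

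Plau (ENSMUSG00000021822, chr14:20836660-20843385, plus strand), urokinase itself, was a low transcript. It was at 4.52, 22.7, 5.36 and 11.2 CPM in neutrophil-like cells and at 16.7, 22.3, 15.5 and 15.1 CPM in macrophage-like cells. The levels of both classes overlap in Vehicle-OVA, where the intervals were 21 to 24.4 and 20.4 to 24.3 CPM, and in the other 3 libraries macrophage-like cells were higher. In cluster 1 Plau was at 62.2, 34.5, 67.0 and 47.3 CPM, and in cluster 0 at 3.62, 7.72, 5.89 and 6.03 CPM. Vehicle-OVA was thus lowest in cluster 1 (0.554-fold the level of Vehicle), the cluster that held 63.4% of its neutrophil-like cells and 3.40% of those of Vehicle.

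F3 (ENSMUSG00000028128, chr3:121723537-121735048, plus strand), tissue factor, was a transcript of epithelial-like and neutrophil-like cells. Epithelial-like cells held 179, 684, 416 and 628 CPM, carried by cluster 19 (led by Chil4 and Tff2) at 356.5, 1065, 776 and 809 CPM. The other epithelial-like cluster, 23 (led by Bpifb9b and Bpifb3), held only 20.2, 36.0, 28.1 and 9.98 CPM, below neutrophil-like cells of each library. Neutrophil-like cells held 32.3, 402, 85.1 and 108 CPM, with Vehicle-OVA far above the rest. Macrophage-like cells held only 1.94, 18.2, 1.87 and 5.84 CPM, and the neutrophil-like level was 16.6, 22.1, 45.6 and 18.5 times as high. In Vehicle-OVA, F3 in macrophage-like cells was 4.52% of the neutrophil-like level (S100a9, 1.79%), while in monocyte-like cells, at 7.70 CPM (4.93 to 11.5), it was within counting error of the lymphoid level of 11.2 CPM.

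Within the neutrophil-like clusters, F3 in cluster 1 was at 86.3, 548, 248 and 398 CPM, and both OVA libraries stood above both libraries without OVA. In cluster 0 the levels were 14.5, 56.7, 27.7 and 54.8 CPM, with the same order of OVA against no OVA. In cluster 2 they were 56.3, 102, 134 and 107 CPM, with Ribavirin highest. After thinning, 3.00%, 19.9%, 6.64% and 7.16% of neutrophil-like cells had an F3 UMI, against 1.89% of plasma cell-like cells in Vehicle-OVA.

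F10 (ENSMUSG00000031444, chr8:13037308-13056676, plus strand), coagulation factor X, was the only member past 2-fold on log2(CPM + 1) with OVA in both pairs in neutrophil-like cells. Plau was past it in both pairs in plain CPM only, at 5.01-fold under vehicle and 2.09-fold under ribavirin. Neutrophil-like cells held 9.99, 249.6, 21.9 and 81.4 CPM. Macrophage-like cells held 36.8, 306, 46.1 and 211 CPM. Monocyte-like cells held 137, 299.5, 185 and 254 CPM. In each of these classes both OVA libraries stood above both libraries without OVA, and in Vehicle-OVA the intervals of macrophage-like (299.1 to 313) and monocyte-like cells (281 to 319) overlap.

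The F10 pattern was also found within neutrophil-like clusters 0 and 2 and monocyte-like cluster 9. It was not found beyond counting error in both pairs within neutrophil-like clusters 1, 8 and 17, macrophage-like clusters 4 and 6 or monocyte-like cluster 14. Cluster 0 held 3.18, 109.8, 4.25 and 65.7 CPM, or 34.6-fold (23.7 to 52.3) in Vehicle-OVA over Vehicle and 15.5-fold (10.6 to 23.3) in Ribavirin-OVA over Ribavirin. Cluster 2 held 8.76, 96.9, 28.5 and 60.3 CPM. Cluster 1 held 161, 383, 233 (188 to 285) and 289 (259 to 320.2) CPM, with overlapping intervals in the ribavirin pair. Cluster 8 held 0, 49.7, 93.7 and 33.7 CPM, where the 38 cells of Ribavirin, with 14 UMIs, stood highest and the 0 UMIs of Vehicle allow up to 21.8 CPM. Cluster 17 held 5.28, 39.6, 4.84 (2.32 to 8.91) and 9.85 (6.02 to 15.2) CPM, again with overlapping intervals in the ribavirin pair. In macrophage-like cells cluster 4 held 39.7, 30.9, 45.9 and 56.2 CPM, with no common direction, and cluster 6 held 289, 329.6, 313 and 234 CPM, although only 23 and 59 of its cells came from Vehicle and Ribavirin. The gap between clusters 4 and 6 was thus larger than the range of F10 over the libraries within either. In monocyte-like cells cluster 9 held 113 (106 to 120), 222 (189 to 258), 163 (154 to 172) and 264 (229 to 302) CPM. Cluster 14 held 207, 324, 226 (212 to 241) and 250 (231 to 271) CPM, with overlapping intervals in the ribavirin pair.

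F13a1 (ENSMUSG00000039109, chr13:36867178-37050244, minus strand), the A subunit of factor XIII, was a monocyte-like transcript in all 4 libraries, at 146, 699, 166 and 603 CPM. Macrophage-like cells held 35.0, 99.99, 24.2 and 47.8 CPM and neutrophil-like cells 0.940, 7.62, 1.19 and 1.40 CPM. The lymphoid level was 1.74 CPM in Vehicle-OVA. Both OVA libraries stood above both others in monocyte-like cells, and this held within cluster 14, at 321 (301 to 341), 895 (857 to 934), 320.1 (303 to 337) and 757 (723 to 791) CPM. Cluster 9 held 85.7, 82.3, 82.3 and 114 CPM. In macrophage-like cells cluster 4 held 22.5, 35.8, 21.1 and 34.9 CPM, higher with OVA in both pairs. Cluster 6 held 23.4 (3 UMIs), 104, 102 and 49.7 CPM, so Ribavirin-OVA was below Ribavirin there. Cluster 18 held 152, 56.7, 41.1 and 34.0 CPM, so Vehicle-OVA was below Vehicle there. The share of monocyte-like cells with an F13a1 UMI after thinning was 10.4%, 29.9%, 12% and 24.3%.

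Thbs1 (ENSMUSG00000040152, chr2:118111876-118127133, plus strand), thrombospondin-1, was shared by the 3 classes. Neutrophil-like cells held 187, 1682, 541 and 431 CPM, macrophage-like cells 177, 744, 235 and 448 CPM, and monocyte-like cells 564, 777, 823 and 476 CPM. Vehicle-OVA was highest in neutrophil-like and macrophage-like cells, and Ribavirin in monocyte-like cells. In cluster 1, Thbs1 was at 456, 2516, 1059 and 445 CPM, so that Ribavirin-OVA was near Vehicle there, and in cluster 2 at 315, 304, 807 and 312 CPM. In macrophage-like cells cluster 4 held 191, 126, 234 and 133 CPM and cluster 6 held 742, 797, 1158 and 495 CPM, so within each of these clusters Ribavirin-OVA was below Ribavirin. The antisense gene Gm29233 had 1 UMI over the 3 classes.

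The comparison of OVA with no OVA under vehicle asked how the allergen model went with these genes. In neutrophil-like cells all 7 members were at least 2-fold higher in Vehicle-OVA, Serpinb2 among them through the level that chose it, and the count reads on the other 6 (6.4% of 11231 genes tested were, and 30.7% were at least 2-fold lower). A gene was tested with at least 50 UMIs over the 4 libraries, and the log2 ratio was taken on CPM + 1. The ratios were 434 (211 to 1081) for Serpinb2, 25.0 (21.5 to 29.3) for F10, 12.4 (11.4 to 13.6) for F3, 9.0 (8.69 to 9.33) for Thbs1, 8.11 (4.89 to 14.4) for F13a1, 5.01 (3.96 to 6.42) for Plau and 4.69 (4.55 to 4.83) for Plaur. The median log2 ratio over all genes tested was -0.59, and relative to it the other 6 members lay from 2.69 for Plau to 5.10 for F10. Without cluster 0, named under a rule chosen after the clusters were seen, the other 6 members were still past 2-fold. The share of all genes past 2-fold without that cluster is not given. Beside these, the 8 macrophage markers summed to 1488, 468, 1168 and 671 CPM in neutrophil-like cells and 14 genes linked to stress from tissue digestion to 22844, 32011, 26079 and 35009 CPM, and their part in the result was not tested. The 7 platelet markers, which matter for genes that platelets also carry, summed to 1.82 to 4.31 CPM, with Gp1ba at 0 in all 4 libraries. The rise was not limited to neutrophil-like cells. All members tested were at least 2-fold higher in NK-like (4), plasma cell-like (4) and epithelial-like cells (5). F10 and F3 of NK-like cells and F10 of epithelial-like cells reached the UMI filter only through Vehicle-OVA. Their places past 2-fold may thus be fixed by the filter, although they are counted. In conventional dendritic cell-like cells 3 of 6 were at least 2-fold higher, and F3 among them also reached the filter only through Vehicle-OVA. The share of all genes past 2-fold in these classes is not given. The lowest member past it lay above 99.5% of genes tested in NK-like (Plaur) and in plasma cell-like cells (F10). It lay above 86.5% in epithelial-like (Thbs1) and 99.3% in conventional dendritic cell-like cells (F10). Thbs1 was at 11.7-fold in NK-like and F3 at 24.3-fold in plasma cell-like cells, above their neutrophil-like ratios. F10 was below its own in these 2 classes, at 12.7- and 14.2-fold. The part of free RNA in these ratios was not tested.

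In macrophage-like cells 4 of the 6 members other than Serpinb2 were at least 2-fold higher in Vehicle-OVA (9.42% of 12181 genes tested, and 3.72% were at least 2-fold lower). The ratios were 9.35 (7.19 to 12.3) for F3, 8.32 (7.83 to 8.84) for F10, 4.20 (4.07 to 4.32) for Thbs1 and 2.85 (2.66 to 3.06) for F13a1. Serpinb2, with 1 against 327 UMIs, stood at 466 (83.1 to 18474), but it passed the filter of 50 UMIs only through Vehicle-OVA, so its place past 2-fold was fixed by the filter and it is not counted. Plau and Plaur were at 1.34- and 1.67-fold. Without cluster 6, named under the same later rule, 1 of these 6 members, F3, was past 2-fold and the log2 ratios of F10 and Thbs1 were -0.73 and -0.75. The share of all genes past 2-fold without that cluster is not given. The monocyte markers summed to 847, 5162, 732 and 5507 CPM and the neutrophil markers to 448, 1434, 549 and 491 CPM in macrophage-like cells, and their part was not tested.

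In monocyte-like cells 4 of 7 members were at least 2-fold higher in Vehicle-OVA (10.4% of 10222 genes tested, and 3.58% were at least 2-fold lower), namely F13a1 (4.79, 4.5 to 5.11), F3 (3.31, 1.84 to 5.93), Serpinb2 (2.59, 1.94 to 3.43) and F10 (2.19, 2.02 to 2.37). Thbs1 was at 1.38-fold and Plaur at 1.14-fold. Plau was at 0.627-fold (0.310 to 1.16), which is within counting error. F3 turned to a log2 ratio of -1.60 once the lymphoid level was taken off, and F13a1 to -0.12 with doublets kept.

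**Figure D3:**
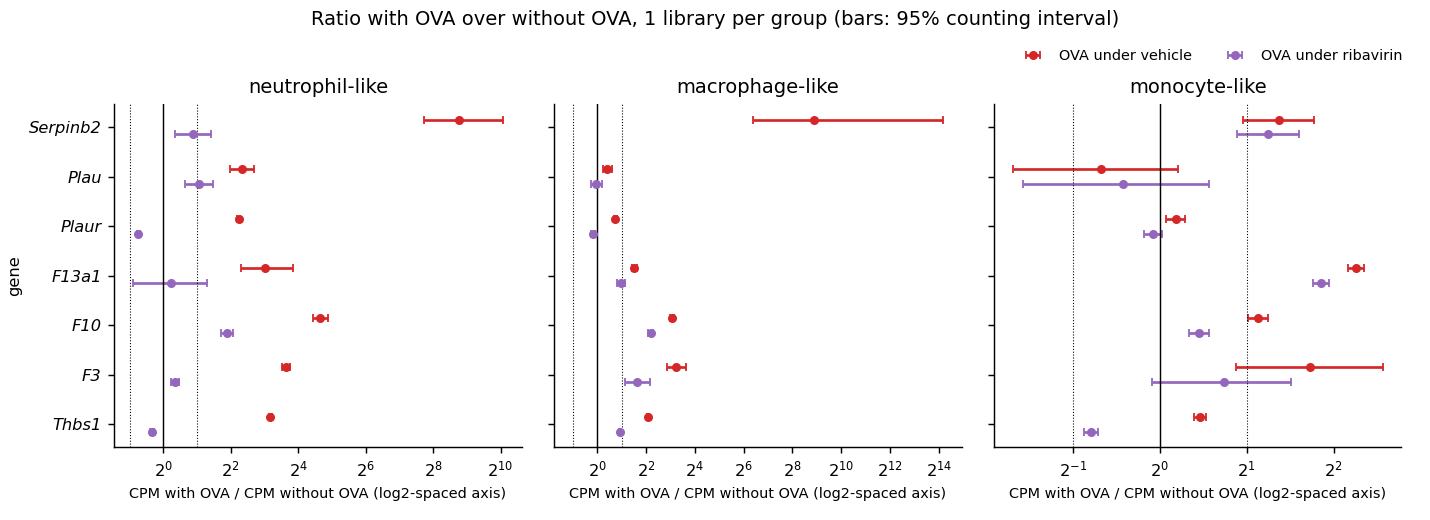
Ratio of CPM with OVA to CPM without OVA of each member in the vehicle pair (red) and the ribavirin pair (purple), on a log2-spaced axis with bars for the 95% interval of counting error and dotted lines at 2-fold. All 7 members lie right of the upper line in neutrophil-like cells of the vehicle pair, and Serpinb2 of macrophage-like cells in the ribavirin pair is not drawn, since Ribavirin had 0 UMIs.

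The same comparison under ribavirin gave smaller ratios in neutrophil-like cells. Only F10, at 3.72-fold (3.30 to 4.20, log2 ratio 1.85), was at least 2-fold higher in Ribavirin-OVA (6.86% of genes tested). With cells limited to 5% mitochondrial UMIs it was at 0.89. Plau was at 2.09-fold (1.57 to 2.77), but at 0.94 on the log2 scale of CPM + 1, Serpinb2 at 1.84-fold (1.26 to 2.66) and F3 at 1.27-fold (1.17 to 1.37). F13a1 was within counting error at 1.17-fold (0.535 to 2.44). Plaur (0.597-fold, 0.576 to 0.618) and Thbs1 (0.796-fold, 0.766 to 0.826) were lower in Ribavirin-OVA, and 2.58% of genes were at least 2-fold lower. The median was 0.34 over the members and 0.27 over all genes.

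In macrophage-like cells under ribavirin, 2 members were at least 2-fold higher with OVA (7.36% of genes tested, and 2.75% were at least 2-fold lower), F10 at 4.58-fold (4.29 to 4.90) and F3 at 3.13-fold (2.20 to 4.52). F3 in these cells was at 1.87 and 5.84 CPM against a lymphoid level of 1.96 and 4.30 CPM, so it lay at or near the lymphoid level in both libraries. F13a1 and Thbs1 followed at 1.97- and 1.90-fold, Plau was at 0.975-fold (0.831 to 1.14) and Plaur at 0.882-fold (0.837 to 0.93). In monocyte-like cells 2 members were past 2-fold (11.4% of genes tested were, and 3.79% were at least 2-fold lower), F13a1 at 3.62-fold (3.40 to 3.85) and Serpinb2 at 2.38-fold. Thbs1 was at 0.578-fold (0.548 to 0.610). F10 in macrophage-like cells and F13a1 in monocyte-like cells were thus past 2-fold with OVA in both pairs.

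The comparison of ribavirin with vehicle gave opposite directions without and with OVA in neutrophil-like cells. Without OVA, 5 of 7 members were at least 2-fold higher in Ribavirin (1.55% of genes tested, and 0.169% were at least 2-fold lower). These were Serpinb2 (8.33-fold, 3.83 to 21.5), Thbs1 (2.90), Plaur (2.64), F3 (2.64) and F10 (2.19), and Plau (1.19, 0.877 to 1.61) and F13a1 (1.27, 0.646 to 2.55) were within counting error. With OVA, 5 of the 6 members other than Serpinb2 were at least 2-fold lower in Ribavirin-OVA than in Vehicle-OVA (2.58% of genes tested, while 30% were at least 2-fold higher). Serpinb2, described by the level that chose it, was at 0.0352-fold (0.0264 to 0.0460), F13a1 at 0.184-fold, Thbs1 at 0.256-fold, F3 at 0.268-fold, F10 at 0.326-fold, Plaur at 0.335-fold and Plau at 0.493-fold. Plau was not counted, since its log2 ratio of CPM + 1 was -0.96. The median log2 ratio with OVA was 0.73 over all genes tested. These comparisons share libraries with those of OVA and are not separate evidence.

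Macrophage-like cells had no member past 2-fold without OVA (0.443% of genes tested were at least 2-fold higher and 0.0493% lower), with log2 ratios from -0.52 for F13a1 to 0.41 for Thbs1. With OVA, 2 of the 6 members other than Serpinb2, F3 (0.322-fold, 0.257 to 0.40) and F13a1 (0.478-fold, 0.441 to 0.517), were at least 2-fold lower in Ribavirin-OVA (1.23% of genes tested were, and 1.14% were at least 2-fold higher). Serpinb2, at 0.0326-fold (0.0139 to 0.0649), was tested only because of its Vehicle-OVA UMIs and is not counted, and Plau, Plaur, F10 and Thbs1 were at log2 ratios of -0.53 to -0.73. Clusters 4 and 6 took similar shares in the 2 libraries of each of these pairs. In monocyte-like cells no member was past 2-fold in either pair (without OVA, 0.92% of genes higher and 0.0685% lower, and with OVA 3.09% and 1.67%), and the largest log2 ratio in size was that of Thbs1 with OVA (-0.71).

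Within cluster 1 of Vehicle-OVA cells with a Serpinb2 UMI more often had a UMI of Plaur, F3 and Thbs1 and less often of F10. After thinning to 1000 UMIs, Plaur was found in 75.8% (71.7% to 79.6%) of the 480 cells with a Serpinb2 UMI and in 52.7% (51.3% to 54.0%) of the 5665 without. F3 was found in 36.7% (32.3% to 41.2%) against 23.7% (22.6% to 24.8%), and Thbs1 in 50.8% (46.3% to 55.4%) against 38.1% (36.8% to 39.4%). F10 was found in 19.8% (16.3% to 23.6%) against 24.9% (23.8% to 26.1%). Plau was at 2.29% and 3.55%. The cells come from 1 library and are not replicates, and their median depth before thinning was 3375.5 UMIs with and 2635 without Serpinb2.

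**Figure D4:**
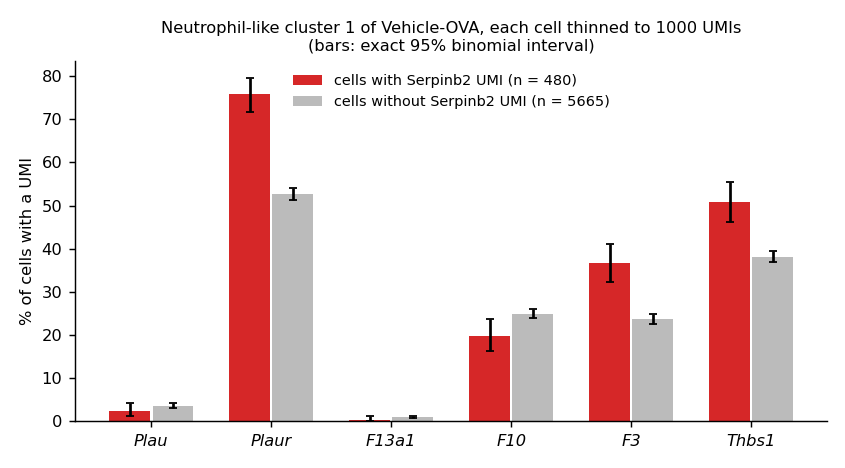
Share of cluster 1 cells of Vehicle-OVA with a UMI of each other member, among cells with and without a Serpinb2 UMI after thinning to 1000 UMIs, with exact 95% binomial intervals. Plaur, F3 and Thbs1 lie higher in cells with Serpinb2 (75.8% against 52.7% for Plaur), and F10 lower.

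The other genes of plasminogen activation, coagulation, anticoagulation and thrombospondin binding were taken from a list of 54, of which 47 are not members and all were in the table. In neutrophil-like cells 21 of the 47 could be tested, and 8 were at least 2-fold higher and 3 lower in Vehicle-OVA, beside 6.4% and 30.7% of all genes tested. F7, factor VII, was at 0.587 against 13.8 CPM (23.4-fold), Procr, the endothelial protein C receptor, at 1.17 against 15 CPM, Thbs4 at 0.0587 against 5.64 CPM and Itgb3, an integrin subunit, at 3.29 against 22.2 CPM. Vehicle gave Thbs4 almost no UMIs, so Thbs4 passed the UMI filter through the other libraries. Its place past 2-fold may thus be fixed by the filter, although it is counted among the 8. Of the plasminogen activators and receptors, 1 was higher and 2 were lower of 6 tested, and Lrp1, which clears urokinase complexes, was at 74.8 against 18.5 CPM. Plg, plasminogen itself, had no UMI in the 3 classes. Under ribavirin 5 were higher with OVA and none lower, beside 6.86% and 2.58% of all genes, led by F7 (log2 ratio 2.41), Itgb3 (2.08), the thrombin receptor F2r (1.73) and Itgav (1.33).

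In macrophage-like cells 8 of 23 tested were at least 2-fold higher in Vehicle-OVA and none lower, beside 9.42% and 3.72% of all genes tested. F7 was at 2.69, 99.5, 2.02 and 74.6 CPM, or 37.0-fold (29.9 to 46.2) in Vehicle-OVA over Vehicle and 36.8-fold in the ribavirin pair. F7 lies 1498 bases before F10 on the same strand, and it was among the leading genes of cluster 6. Anxa2, a surface receptor for plasminogen and its tissue activator, was at 40.2 against 325 CPM under vehicle (log2 ratio 2.98, and 2.46 under ribavirin), Itgb3 was at log2 ratios of 2.03 and 2.22, and Thbd, thrombomodulin, an anticoagulant receptor, was at 10.8 against 38.3 CPM. Under ribavirin 6 were higher and none lower, beside 7.36% and 2.75% of all genes. Of 6 tested plasminogen activators and receptors, 4 were past 2-fold under vehicle and 1, Anxa2, under ribavirin.

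In monocyte-like cells 6 of 15 tested were at least 2-fold higher in Vehicle-OVA and 1 was lower, beside 10.4% and 3.58% of all genes tested. Thbd was at 34.8, 140.1, 35.5 and 143 CPM, so both OVA libraries stood above both others. F7 was at 1.83 against 14.4 CPM under vehicle, and Anxa2 was at a log2 ratio of 1.29. Procr, the gene that was lower, was at 19.995, 2.89, 12.2 and 10.8 CPM, the opposite of its direction in neutrophil-like cells under vehicle. Under ribavirin 4 were higher with OVA and none lower, beside 11.4% and 3.79% of all genes, namely Itgb3 (2.26), Thbd (1.98), Cd36, a thrombospondin receptor (1.59), and Pros1, protein S (1.44).

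**Figure D5:**
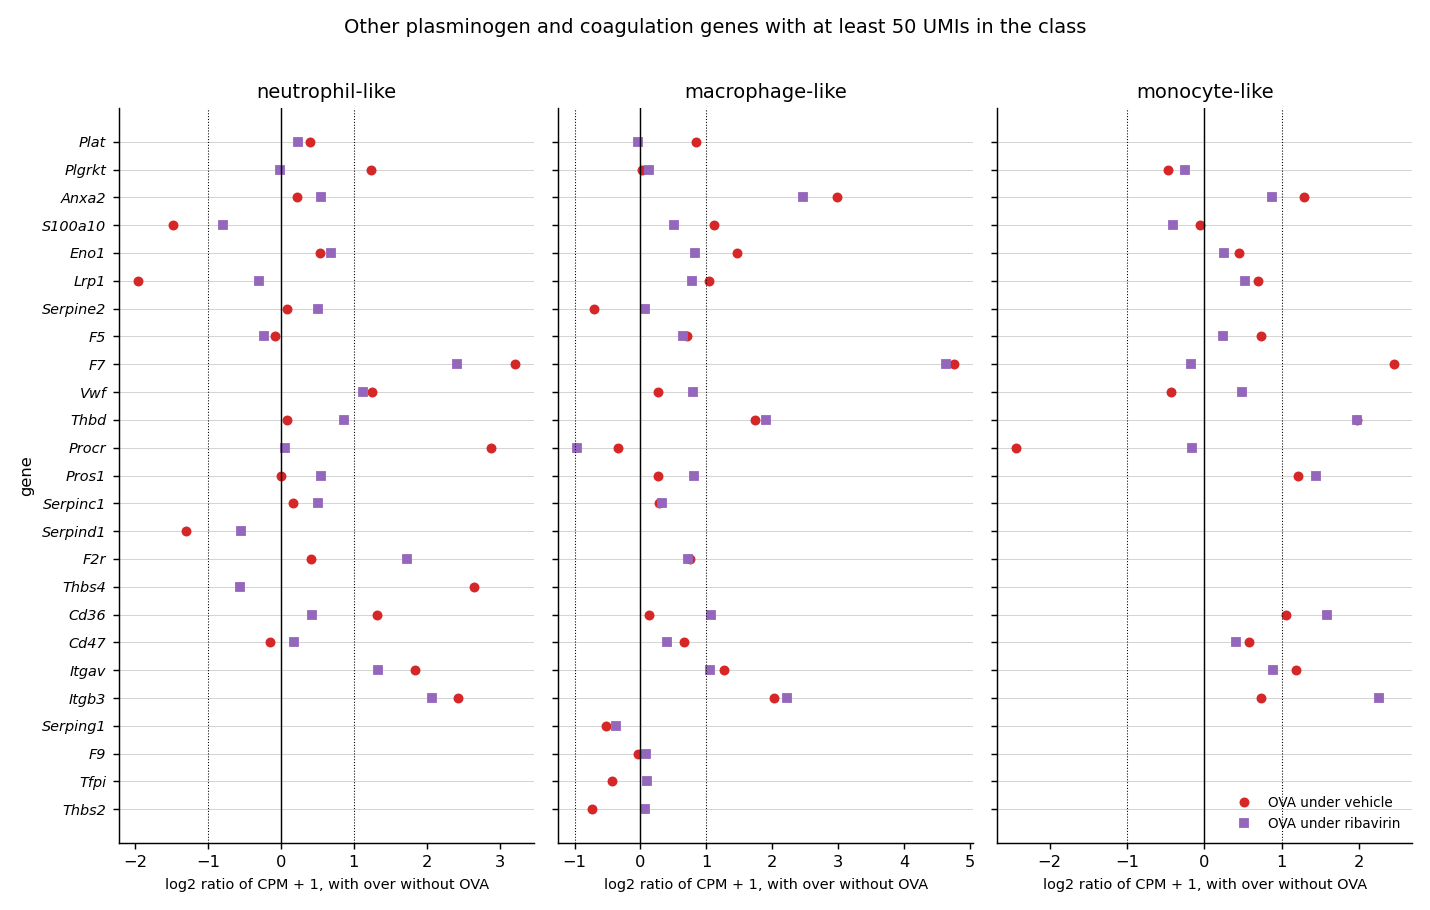
Log2 ratio of CPM + 1, with over without OVA, of the listed plasminogen and coagulation genes other than the members that could be tested, in the vehicle pair (circles) and the ribavirin pair (squares), with 1 panel per class and dotted lines at 2-fold. F7 in macrophage-like cells lies at 4.77 under vehicle and 4.64 under ribavirin.

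The genes most like each member over 48 sums of class and library were found among 16540 genes by Pearson correlation of log2(CPM + 1), as a description, since the sums share libraries and depth. Serpinb2 was most like Nos2 (0.866), Tnfaip6 (0.813) and Dgat2 (0.788), and Plau most like Lhfpl2 (0.906), Hmox1 (0.876) and C5ar1 (0.868). Plaur was most like Cd300lf (0.93), Bst1 (0.913) and Cd33 (0.910), and Thbs1 most like Cd14 (0.952), Cebpb (0.926) and C1rl (0.922). F13a1 was most like Clec4a1 (0.924), Adgre4 (0.912) and Clec4a3 (0.894), and F10 most like Tlr2 (0.923), Tgfbi (0.918) and Ifi204 (0.897). F3 was most like Chil1 (0.98), Lcn2 (0.968) and Rab15 (0.922). Among the members themselves the correlation was highest for F10 with Thbs1 (0.865), and F13a1 with F3 stood near 0 (-0.04).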

How the data were processed

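Single-cell 3′ RNA-seq of CD45+ nasal mucosa cells was measured in 4 mouse libraries, 1 per group, all assigned by their treatment label. The authors deposited filtered matrices of whole UMI counts per gene and cell, made with Cell Ranger 5.0.0 on mm10 per the submitters' processing notes. The labels name magnetic sorting of the cells. Cells were kept from 200 genes and 500 UMIs upward if mitochondrial genes took less than 10% of their UMIs. Per library the lowest total of a kept cell was 502, 501, 1783 and 500 UMIs, in the order Vehicle, Vehicle-OVA, Ribavirin and Ribavirin-OVA.

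Simulated doublets were scored per library and the highest-scoring cells removed up to 0.4% per 1000 barcodes, a rate set after the automatic threshold failed in 1 library. This removed 2942, 1281, 1731 and 336 cells. The remaining cells of all libraries were clustered together (2000 variable genes without the 7 members, 30 components, 15 neighbours, Leiden resolution 1.0, no batch correction). A cluster was named "-like" from marker lists when at least 3 markers were raised and its leading genes, found in at least 25% of its cells, did not point to another class. That share was raised from 10% after clusters 0 and 6 had stayed unnamed.

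Sums of UMIs over the cells of a class in 1 library were given as CPM with exact Poisson intervals, ratios with exact conditional binomial intervals and shares with Clopper-Pearson intervals. Shares were taken after thinning to 1000 UMIs. A zero allows 3 counts. All intervals are 95% and cover counting error only. Genes with at least 50 UMIs were tested against a 2-fold limit on log2(CPM + 1), and with 1 library per group no p-value was computed. Of the pathway list, up to 4 genes with the largest ratio past 2-fold per class and OVA comparison are named with values, with Lrp1 and Plg added after their values were seen. An item of that list is not reported here and was left out of its counts. For each member the 3 most correlated genes are named. The members, gene lists and comparisons were chosen with earlier results of these data known. Positions are from the GRCm38 annotation and promoters from RefSeq (GRCm38.p6). The steps were tested on simulated counts with Python 3.11.15, numpy 2.4.6, scipy 1.17.1, pandas 2.3.3 and igraph 0.11.9. The alternatives changed the cell filters, doublet removal, clustering, class naming, pseudocount, gene filter and centring, and subtracted the lymphoid level.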

Additional observations from a re-analysis of the deposited data

Results flagged for a closer look

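In neutrophil-like, macrophage-like and monocyte-like cells, the classes examined for this, 4 results had OVA ratios of opposite sign in the vehicle and the ribavirin pair of libraries with both counting intervals clear of no difference. The share of all genes with opposite signs is not given. In neutrophil-like cells the median log2 ratio over all genes was itself -0.59 under vehicle and 0.27 under ribavirin. Ratios of opposite sign also occur in other classes, such as Serpinb2 in epithelial-like cells, at 0 and 17.2 CPM in the vehicle pair and 6.41 and 2.62 CPM in the ribavirin pair. The difference was not tested in any of the 4, since each pair holds 1 library per group. In neutrophil-like cells the log2 ratio with over without OVA of Plaur was 2.23 under vehicle and -0.74 under ribavirin. In the same cells that of Thbs1 was 3.16 and -0.33. These signs were not found in every neutrophil-like cluster. In cluster 0 Plaur was at 98.4, 252, 141 and 174 CPM and Thbs1 at 54.5, 183, 95.1 and 144 CPM. Both genes were thus higher with OVA in both pairs there, and also in cluster 17. In clusters 1 and 8 both genes had opposite signs, and in cluster 2 neither was higher with OVA in either pair. In macrophage-like cells the log2 ratio of Plaur was 0.74 and -0.18. Neither main macrophage-like cluster held more Plaur with OVA in either pair. Cluster 4 held 132, 124, 149 and 124 CPM. Cluster 6 held 422, 216, 315 and 133 CPM, with 23 cells in Vehicle and 59 in Ribavirin. The signs were opposite in clusters 18 and 20. In monocyte-like cells the log2 ratio of Thbs1 was 0.46 and -0.79, and the signs were opposite in clusters 9 and 14 as well.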

How the results depend on the processing

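With 1 library per group nothing here speaks to the spread between mice, and the gaps in clusters and depth between the libraries limit each class comparison as much as counting error does. No paired analysis was possible because each group holds 1 library.

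All 7 members were at least 2-fold higher in neutrophil-like cells of Vehicle-OVA than of Vehicle under every alternative run. Serpinb2 was among them through the level that chose it, with a log2 ratio between 5.78 and 7.58. The log2 ratio of Serpinb2 in neutrophil-like over macrophage-like cells of Vehicle-OVA (3.59) was 2.46 with a mitochondrial limit of 5%, 3.24 with doublets kept, 3.91 at resolution 2.0, 3.94 with libraries clustered separately, 4.42 with classes from single-cell marker UMIs, 2.70 as the mean of single-cell CPM, 5.95 with leading genes in at least 10% of cells and 3.96 with the lymphoid level taken off. The last 2 alternatives were chosen after seeing the data.

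The counts that follow are of those of the 7 members that passed the UMI filter, Serpinb2 included where it did. The share of all genes past 2-fold is not given for the alternatives. Under vehicle, 5 members were past 2-fold in macrophage-like cells, 4 of them beside Serpinb2, whose place was fixed by the filter. With the 10% naming rule, which leaves cluster 6 out, the count was 1. In monocyte-like cells (4) it was 1 at resolution 0.5 and with libraries clustered separately, and 2 when centred on the median of all genes or with at least 500 UMIs per gene. Under ribavirin, the count in neutrophil-like cells (1) was 0 with the 5% limit and 2 with doublets kept, separate clustering, members among the clustering genes, centring, single-cell CPM or the 10% rule. In macrophage-like cells (2) it was 4 with the 5% limit and 1 with a pseudocount of 5 CPM or the 10% rule. In monocyte-like cells (2) it was 1 with doublets kept, resolution 0.5, single-cell markers or 500 UMIs.

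With the 10% rule the macrophage-like log2 ratios of F10 and Thbs1 turned to -0.73 and -0.75 under vehicle and that of F10 to -0.40 under ribavirin. In monocyte-like cells under vehicle F13a1 turned to -0.12 with doublets kept and F3 to -1.60 with the lymphoid level taken off. Except where the fewer clusters or genes kept show it, the cause was not tested. Of 268 alternative values for the 21 single-gene results past 2-fold, 95 stayed within counting error, 168 moved in size and 5 changed sign. All 21 thinned shares moved without thinning.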
